A study of Mus musculus with 3 samples.

Results

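The genes described here are the 214 mouse genes, of 55536 annotated genes measured, that have at least 1 transcript of the annotation class bidirectional_promoter_lncRNA. They were chosen from the class written beside each transcript name in the deposited read-based tables, where 327 transcripts carried it. Gas5, small nucleolar RNA host genes and microRNA host genes were to be left out, and 0 genes of this class had such a symbol. The choice used no measured value. Of the 214 genes, 190 were also entered in the annotation under this class as a whole, 23 as processed transcripts and 1 as a lincRNA.

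Many mammalian promoters, above all those rich in CpG dinucleotides, start transcription in both directions, with a messenger RNA on one strand and a noncoding RNA on the other. The noncoding RNA is often short-lived, is degraded by the nuclear exosome and stays close to the chromatin on which it was made. A bidirectional-promoter long noncoding RNA is an annotated gene that begins near the start of a protein-coding gene and runs away from it, and the protein-coding gene is called its divergent partner below.

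RNA came from bone-marrow-derived macrophages of C57BL/6J mice, which are macrophages grown in culture from marrow progenitors. The only group is 3 libraries of cells given Lipid A at 100 ng/ml for 12 hours, washed and left without it for 12 hours, and given 100 ng/ml Lipid A again for 50 minutes. Lipid A is the part of bacterial lipopolysaccharide that Toll-like receptor 4 binds. The chromatin fraction supplied the RNA, ribosomal RNA was removed from it, and total RNA libraries were made from 1 µg in replicate 1, from 250 ng in replicate 2 and from 500 ng in replicate 3. The labels name the same donor for the 3 libraries, and nothing says that these came from separate animals or cultures, so each SD measures the spread between libraries, which may be technical. Cells without Lipid A, or given it a single time, were not analysed here, so no response can be read from these levels.

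Replicates 1, 2 and 3 held 13897176, 19597343 and 19348626 expected counts, of which the 214 genes took 17153, 16075 and 13082. Chi-square per degree of freedom between library pairs ranged from 41.6 to 103 over genes with at least 10 counts in a pair, so no pair agreed within counting noise. All 11 macrophage markers examined reached a TPM of 1 in each library, with a summed level of 1367, 1490 and 1337 TPM. TPM, the usual unit of relative transcript abundance, is corrected for transcript length. None of the markers of neutrophils, B cells, T cells, dendritic cells, erythroid cells or stromal and endothelial cells reached 1 TPM in every library, and their sums stayed between 0 and 4.40 TPM per cell type and library. With 3 libraries the smallest p that an exact two-sided sign-flip test can give is 0.25, so levels are described by their spread and no p is given.

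The starts of these genes are shown first because the start is what defines them. Promoter sequence came from RefSeq windows of 300 bases on GRCm38.p6, which has the coordinates of mm10, running from 250 bases before to 50 bases after a gene's start. By symbol 106 of the 214 genes matched. For 94 of those the RefSeq start lay within 500 bases of the start in the annotation used for the counts. The same held for 142 of the partners and for 14 of the 28 genes called detected below. The windows of 5 genes are printed, 5′ to 3′ on the noncoding gene's own strand, with its RefSeq start at base 251. They belong to the most abundant of the genes, A930037H05Rik (chr11:119491186-119491485, minus strand), to the most abundant one that overlaps no other gene, 4632427E13Rik (chr7:92741410-92741709, minus strand), and to E230013L22Rik (chr8:11477679-11477978, plus strand), which begins inside its partner. The others are Gm16675 (chr8:46739466-46739765, minus strand), opposite an interferon regulatory factor gene, and 2310010J17Rik (chr7:90129887-90130186, minus strand), which stood farthest below its partner among the 28. Capitals mark matches on either strand to the 9 searched motifs named after the sequences, and the window of E230013L22Rik holds no match.
A930037H05Rik: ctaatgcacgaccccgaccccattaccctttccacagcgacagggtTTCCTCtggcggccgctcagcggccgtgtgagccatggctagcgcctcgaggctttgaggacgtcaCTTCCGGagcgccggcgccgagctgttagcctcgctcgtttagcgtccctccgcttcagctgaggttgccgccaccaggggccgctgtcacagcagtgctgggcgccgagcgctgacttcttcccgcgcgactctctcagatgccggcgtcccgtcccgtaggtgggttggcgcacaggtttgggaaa
4632427E13Rik: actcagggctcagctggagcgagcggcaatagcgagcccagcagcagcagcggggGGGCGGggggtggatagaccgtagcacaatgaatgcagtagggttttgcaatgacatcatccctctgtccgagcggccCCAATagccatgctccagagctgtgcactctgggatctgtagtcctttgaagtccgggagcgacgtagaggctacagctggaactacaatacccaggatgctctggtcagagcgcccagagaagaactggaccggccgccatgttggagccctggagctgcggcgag
E230013L22Rik: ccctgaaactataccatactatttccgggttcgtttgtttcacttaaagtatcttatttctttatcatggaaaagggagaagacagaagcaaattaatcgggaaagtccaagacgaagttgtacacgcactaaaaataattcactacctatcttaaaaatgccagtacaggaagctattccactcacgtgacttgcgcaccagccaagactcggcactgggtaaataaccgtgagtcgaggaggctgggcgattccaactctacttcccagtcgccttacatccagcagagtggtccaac
Gm16675: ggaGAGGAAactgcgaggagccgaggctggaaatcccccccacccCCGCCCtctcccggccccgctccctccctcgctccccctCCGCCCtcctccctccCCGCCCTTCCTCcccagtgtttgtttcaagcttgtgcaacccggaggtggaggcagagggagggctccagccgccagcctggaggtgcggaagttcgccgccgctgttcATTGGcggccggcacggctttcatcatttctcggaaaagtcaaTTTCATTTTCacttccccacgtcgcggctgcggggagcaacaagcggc
2310010J17Rik: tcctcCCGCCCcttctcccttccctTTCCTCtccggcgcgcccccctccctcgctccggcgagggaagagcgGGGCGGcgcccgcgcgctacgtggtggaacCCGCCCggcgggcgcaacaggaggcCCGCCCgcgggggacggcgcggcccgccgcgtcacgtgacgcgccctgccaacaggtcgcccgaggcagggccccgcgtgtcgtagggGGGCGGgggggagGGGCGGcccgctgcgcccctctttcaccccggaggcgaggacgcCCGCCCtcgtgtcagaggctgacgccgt

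The partner starts within 3 of these windows, at base 139 in that of A930037H05Rik, at base 107 in that of 4632427E13Rik and at base 34 in that of Gm16675, on the other strand. The windows of the noncoding genes were rich in G and C, like those of their partners and unlike most windows. Median GC content was 66.2% over the 94 windows of the noncoding genes and 65.7% over the 142 partner windows, against 52.7% over all 32851 windows and 48.3% over 11494 windows of other noncoding genes. Over 21121 windows of other protein-coding genes it was 56.3%. The median ratio of observed to expected CpG was 0.854 in the noncoding genes and 0.847 in the partners, against 0.384 over all windows and 0.563 in other protein-coding genes. The printed window of 2310010J17Rik held 79.0% GC and that of E230013L22Rik 44.3%.

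Core promoter motifs were counted as plain letters on both strands, and none of the 9 searched motifs contains another, though matches can touch. The GC box, GGGCGG, which the factor Sp1 binds, was present in 70.2% of the noncoding genes' windows and 71.1% of partner windows, against 35.7% of all windows. The ETS motif, CCGGAAG, was present in 19.1% and 24.6% of these windows, against 8.86% of all. The TATA box, TATAAA, was present in 2.13% of the noncoding genes' windows and 6.34% of partner windows, against 13.6% of all, and the CCAAT box, CCAAT, in 38.3% and 37.3%, against 37.4%. Since noncoding gene and partner can share bases of the same window pair, these shares are not independent of each other. In the windows of other protein-coding genes the GC box was present in 46.0% and the ETS motif in 11.5%. The TATA box was in 12.6% of them and the CCAAT box in 38.2%. The part of GC content in these differences was not tested.

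Motifs of macrophage and inflammatory factors were counted in the same way. The interferon-stimulated response element was matched in 2.13% of the noncoding genes' windows and 2.11% of partner windows, against 3.44% of all. The NF-kB motif was in 0% of both, against 0.411% of all, the AP-1 motif, TGANTCA, in 6.38% and 3.52%, against 7.81%, and the PU.1 core, GAGGAA, in 21.3% and 24.6%, against 28.3%. In the 14 windows of detected noncoding genes the interferon element was in 1 (7.14%), the AP-1 motif in 2 (14.3%) and the PU.1 core in 5 (35.7%), above the shares of all windows but over few windows and with no test. The motif of NRF1, a regulator of mitochondrial genes, was in 0% and 2.11%, against 0.971%. The window of Gm16675 was 1 of 2 with a match to the interferon-stimulated response element, which stands in capitals on the reverse strand within the first bases after its start. A match is a run of letters and not a measured binding site, and a window without a match says nothing of the factor.

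Few of the 214 genes were abundant on chromatin. With detection set at a TPM of at least 1 in each of the 3 libraries, 28 of the 214 genes were detected (13.1%), against 20.2% of all 55536 genes and 39.2% of the 22028 protein-coding genes. The numbers at 1 TPM or more in single libraries were 39, 44 and 35 in replicates 1, 2 and 3. The median level was 0.095 TPM, against 0 for all genes and 0.367 for protein-coding genes. In bulk RNA, fewer cells making an RNA and less RNA per cell cannot be told apart.

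Most of the genes had some reads. Only 71 of the 214 genes (33.2%) had 0 counts in all 3 libraries, against 56.8% of all genes. A further 107 had a mean above 0 and under 1 TPM, 31 lay from 1 to under 10, and 5 at 10 or more. There were 22 genes with a mean from 0.5 to under 1 TPM. Where the deposited table gives a credible interval, its lower bound was at least 1 TPM in every library for 20 of the 28 detected genes. The sources used here give no level for that interval.

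Other noncoding classes were spread on both sides of this share. Genes entered as sense intronic were detected in 34.3% of 327 cases, those of the class TEC in 23.5% of 3219, processed transcripts in 18.4% of 767 and antisense genes in 15.3% of 2959. LincRNAs were detected in 4.34% of 5853 cases.

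**Figure D1:**
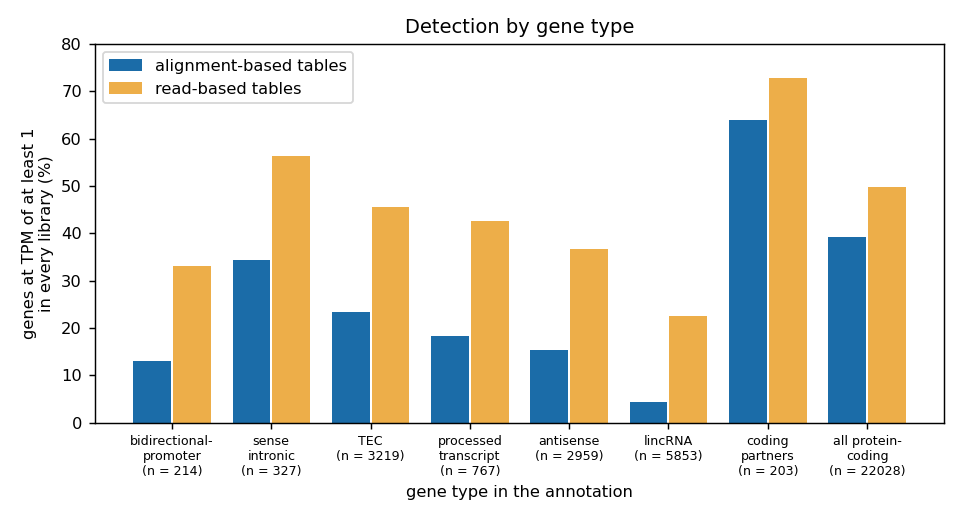
Share of genes (y axis, percent) that reach 1 TPM in each library, by annotation class (x axis, with the number of genes), in alignment-based (blue) and read-based (orange) tables. The bidirectional-promoter class stands at 13.1% in the alignment-based tables, above lincRNAs at 4.34% and below all protein-coding genes at 39.2%, and at 33.2% in the read-based tables.

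Abundance was concentrated in a handful of genes. Together the 214 genes summed to 433, 350.2 and 353 TPM in replicates 1, 2 and 3 (379 ± 47.0, SD, n = 3), and A930037H05Rik alone held 42.6% of the mean sum and the top 5 genes 66.7%. Of the 28 detected genes, 24 had at least 90% of their level in transcripts of the bidirectional class itself, and 26 reached 1 TPM in every library on those transcripts alone. Exceptions to the first count were A930037H05Rik, with 86.7 of 164 TPM in such transcripts, and E230016M11Rik, with 0.760 of 3.49 TPM. The others were AC132253.4, with 1.16 of 1.75 TPM, and 4833418N02Rik, with 1.73 of 2.88 TPM. The rest lay mainly in lincRNA transcripts in 4833418N02Rik and in retained-intron transcripts in the other exceptions. E230016M11Rik and AC132253.4 did not reach 1 TPM in every library on transcripts of the class alone.

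A930037H05Rik was the most abundant of the genes, with 233, 138 and 122 TPM in replicates 1, 2 and 3. All values were far above those of any other of the genes, and replicate 1 was the highest. It begins 49 bases from Endov, which encodes an endonuclease acting on inosine-containing RNA, and Endov stood at 6.12, 9.68 and 6.48 TPM. On the log2(TPM + 1) scale the noncoding gene was 4.29 ± 0.69 above its partner (SD, n = 3). However, 93.5% of its exon bases lie inside the body of another gene, Rnf213, on the opposite strand. Rnf213, a very large ubiquitin ligase, was itself at 902, 912 and 921 TPM. Whether the quantification used read strand is a point on which the sources used here are silent, and without strand reads of the 2 genes cannot be told apart in the bases they share.

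The next most abundant genes stand beside 2 regulators of membrane traffic. E230013L22Rik had 28.4, 28.2 and 33.3 TPM, and its partner Rab20, a small GTPase of endosomes and phagosomes, 52.5, 43.5 and 46.6 TPM. The libraries of each gene lay close together and the ranges did not overlap, with the noncoding gene lower by a log2 difference of -0.65 ± 0.20. The gap between the starts is -781 bases, negative because it begins inside Rab20, and 40.7% of its exon bases lie in the body of that gene.

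4632427E13Rik had 21.2, 24.0 and 20.8 TPM (22 ± 1.71), from 1484, 2236 and 1724 expected counts. Its partner Rab30, a small GTPase of the Golgi, begins 135 bases away and had 0.05, 0.04 and 0.02 TPM. All 3 libraries thus gave the noncoding gene at a level near that of E230013L22Rik and the coding gene near 0 in the alignment-based tables, a log2 difference of 4.47 ± 0.10. In the read-based tables the means were 17.7 TPM for 4632427E13Rik and 1.21 TPM for Rab30, the same direction with a smaller ratio. No exon base of 4632427E13Rik lies in the body of any other annotated gene, and 22 TPM of its mean level lay in transcripts of the bidirectional class. Its window, printed above, holds 1 CCAAT box and 1 GC box.

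AC114539.1 lies on the strand opposite Nfkb2, which encodes the NF-kB precursor p100 and its product p52. The gap between the starts is -1291 bases, since AC114539.1 begins inside Nfkb2 and runs back across the start of that gene. By alignment AC114539.1 had 20.2, 20.6 and 20.0 TPM, the smallest spread of the 28 detected genes, with a coefficient of variation of 1.39%. Its read-based values, 26.7, 31.1 and 24.0 TPM, were spread more widely. Nfkb2 had 127, 119.8 and 165 TPM, and all libraries placed the noncoding gene below it, by a log2 difference of -2.70 ± 0.26. Of its exon bases 58.7% lie in the body of Nfkb2, 30.1% in its exons or those of other genes, with the same limit on strand.

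Gm47126 held the fifth place by mean only through 1 library. It had 4.44, 2.82 and 44.7 TPM, from 6.22, 2.67 and 40.7 expected counts. Replicate 3 stood far above the others, and the coefficient of variation, 137%, was the highest of the 28. The gene has just 269 exon bases, 97.8% of them within exons of Gm26797, a lincRNA on the opposite strand that had 16.5, 5.48 and 6.27 TPM and was highest in replicate 1. Its partner Ano10, of the anoctamin family of membrane proteins, stayed at 14.3, 13.9 and 14.5 TPM.

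**Figure D2:**
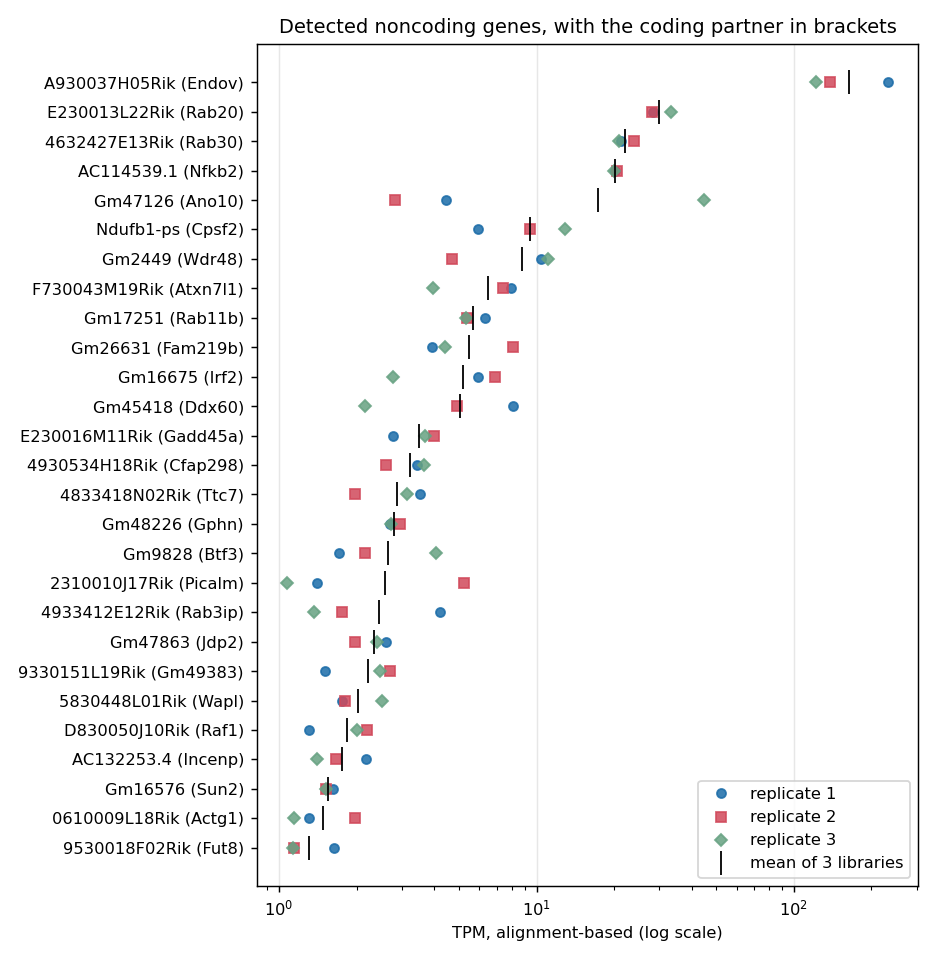
TPM on a log axis of 27 of the 28 detected noncoding genes (rows, highest mean at the top, coding partner in brackets) in replicates 1 (circles), 2 (squares) and 3 (diamonds), with the mean as a vertical bar. A930037H05Rik stands alone at 122 to 233 TPM, AC114539.1 and 4632427E13Rik show little spread, and Gm47126 runs from 2.82 to 44.7 TPM.

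Below 10 TPM the detected genes sat opposite genes of many functions. Ndufb1-ps had 5.93, 9.44 and 12.9 TPM, above its partner Cpsf2, a subunit of the cleavage and polyadenylation complex, at 4.94, 4.65 and 4.66 TPM in every library. Gm2449 had 10.4, 4.71 and 11.1 TPM, lowest in replicate 2, against 58.8, 46.8 and 48.9 TPM for Wdr48, which encodes a cofactor of deubiquitinating enzymes. F730043M19Rik had 7.99, 7.41 and 3.96 TPM, against 91.0, 59.2 and 75 TPM for Atxn7l1. By alignment the ranges of both of these genes lay wholly below those of their partners. In the read-based tables Gm2449 averaged 57.5 TPM and Wdr48 69.3 TPM, a much smaller gap than by alignment.

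Gm47863 had 2.61, 1.98 and 2.41 TPM, against 52.3, 30.4 and 50.1 TPM for Jdp2, a repressor of the AP-1 family, and both genes were lowest in replicate 2. 4833418N02Rik had 3.53, 1.97 and 3.13 TPM, against 10.1, 12.5 and 14.6 TPM for Ttc7. Both were below their partners in every library.

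A further GTPase gene of recycling endosomes, Rab11b, is the partner of Gm17251, which had 6.33, 5.35 and 5.34 TPM, against 7.13, 8.90 and 11.3 TPM for Rab11b. The noncoding gene was lower in every library, by a log2 difference of -0.60 ± 0.40, and 58.3% of its exon bases lie in Rab11b. Gm26631 had 3.92, 8.11 and 4.43 TPM, against 1.14, 2.61 and 2.09 TPM for its partner Fam219b. It was higher than Fam219b in all libraries, but 49.6% of its exon bases lie in other genes, mainly in Cox5a, a subunit of cytochrome c oxidase, which had 15.6, 23.5 and 19.1 TPM.

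For the 203 noncoding genes with a divergent partner the start-to-start distance was mostly short. A partner was the protein-coding gene on the opposite strand whose 5′ end was nearest, at most 2000 bases away, and 203 of the 214 genes had one. In 128 pairs the genes ran apart from separate starts, with a median gap of 112 bases and quartiles of 74 and 202.5. In the other 75 the 5′ ends overlapped, and in 68 of those the noncoding gene shared exon bases with another gene, against 14 of the 128. In 150 pairs the starts lay within 300 bases.

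The coding partners themselves were active more often than coding genes in general. Of the 203 partners 130 were detected (64.0%), against 39.2% of all protein-coding genes, and their median was 5.07 TPM, against 0.367. The noncoding gene was usually the lower of the pair. It was the higher in every library in 7 pairs and the partner in 152, and 44 pairs were mixed, of which 23 had both genes at 0. In the read-based tables the noncoding gene was the higher in 27 pairs. The median log2 difference, noncoding gene minus partner, was -2.03, and it was -1.86, -1.96 and -2.12 in replicates 1, 2 and 3. Among the 28 pairs whose noncoding gene was detected the median was -2.53, with 20 lower and 7 higher than the partner in every library.

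The level of the noncoding gene followed that of its partner in rank. Across the 203 pairs Spearman's rho of the mean levels was 0.60 and Pearson's r of log2(mean TPM + 1) was 0.35, and rho was 0.38 in the read-based tables. These describe pairs of genes measured in the same libraries at the same depth, which in 82 pairs include a noncoding gene that shares exon bases with its partner or with some other gene, and they are not correlations across replicates. Of the 63 noncoding genes whose partner averaged under 1 TPM, 4 were detected (6.35%), and of the 58 with a partner from 1 to under 10 TPM, 4 (6.90%). Of the 70 with a partner from 10 to under 100 TPM, 15 were detected (21.4%), and of the 12 with a partner at 100 TPM or more, 5 (41.7%). The median level in these 4 classes was 0, 0.133, 0.430 and 0.828 TPM. In the read-based tables the medians of the same classes were 0.101, 0.403, 1.12 and 3.60 TPM, so whether the typical noncoding gene beside an active partner stood under 1 TPM differed between the quantifications.

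**Figure D3:**
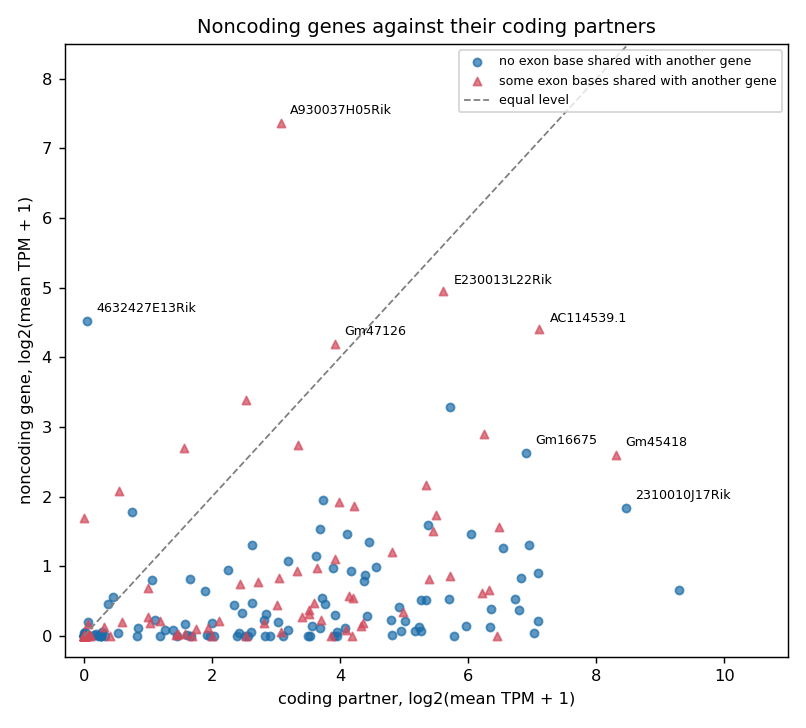
Level of each of 203 noncoding genes (y axis) against its divergent coding partner (x axis), both as log2(mean TPM + 1) over 3 libraries, with red triangles for genes that share exon bases with another gene and blue circles for the others. Most points lie below the dashed line of equal level, while A930037H05Rik and 4632427E13Rik lie far above it, 4632427E13Rik with its partner near 0.

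**Figure D4:**
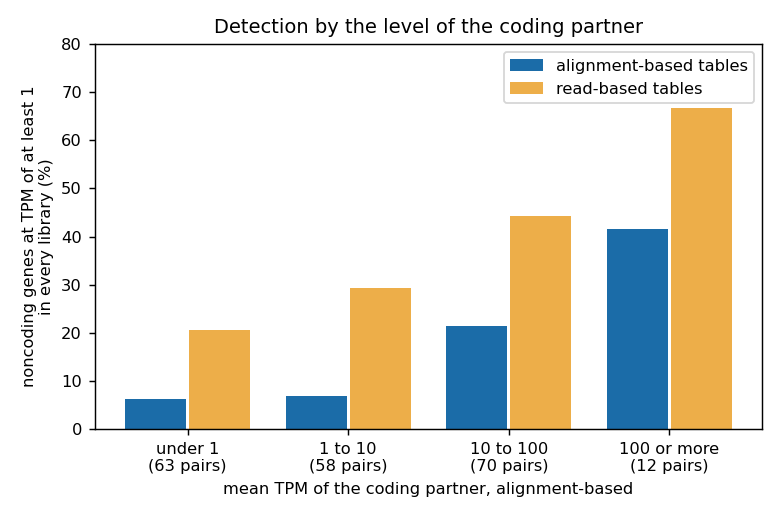
Share of noncoding genes that reach 1 TPM in each library (y axis, percent) in 4 classes of the mean level of the coding partner (x axis), in alignment-based (blue) and read-based (orange) tables. The alignment-based share is 6.35% and 6.90% in the lower 2 classes, 21.4% in the next and 41.7% in the highest, which holds 12 pairs.

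In 7 pairs the detected noncoding gene stood above its coding partner in every library. Beside A930037H05Rik, 4632427E13Rik, Ndufb1-ps and Gm26631 these were 3 genes of lower level. 4930534H18Rik had 3.43, 2.60 and 3.64 TPM, against 0.55, 0.24 and 0.59 TPM for Cfap298, a gene needed for motile cilia. 4933412E12Rik had 4.20, 1.75 and 1.37 TPM, against 1.26, 0.39 and 0.38 TPM for Rab3ip, and both genes of this pair were highest in replicate 1. 9330151L19Rik had 1.51, 2.69 and 2.47 TPM while the annotated coding gene Gm49383 was listed at 0 in every library. Only 4632427E13Rik of the 7 has no exon base within another annotated gene.

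At the other end of the detected genes stood noncoding genes beside the most abundant partners. 2310010J17Rik had 1.40, 5.24 and 1.07 TPM, from just 2.00, 6.00 and 1.00 expected counts. Picalm, a clathrin assembly gene, had 236, 394 and 430.5 TPM, a log2 difference of -6.63 ± 0.87. At so few counts the order of the libraries cannot be read. Its start, printed above, holds 7 GC boxes.

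Gm45418 had 8.11, 4.90 and 2.16 TPM, against 347, 317 and 286 TPM for Ddx60, an interferon-inducible helicase of antiviral defence, and both genes were highest in replicate 1 and lowest in replicate 3. Of the exon bases of Gm45418, 50.1% lie in exons of 4930512H18Rik on the opposite strand, which had 11.2, 5.66 and 3.70 TPM, the same order of libraries, and the part of this overlap in the values was not tested. 0610009L18Rik had 1.31, 1.98 and 1.14 TPM, against 115, 123 and 131 TPM for Actg1, the cytoplasmic gamma-actin gene. In both pairs the ranges were far apart, by log2 differences of -5.71 ± 0.63 and -5.65 ± 0.28.

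Of a list of inflammatory and macrophage regulators, which leaves out antiviral Ddx60, 4 genes were partners, namely Nfkb2, Irf2, Gadd45a and Socs2. The noncoding gene was detected in 3 of the 4 pairs, against 24 of 183 pairs (13.1%) in no list. However, the partners had a median of 78.9 TPM in the 4 pairs and of 4.91 TPM in the 183. The part of partner level in this difference was not tested, and 4 pairs are few. Of the 3 detected genes, E230016M11Rik had only 1.15, 0.52 and 0.61 TPM in transcripts of the bidirectional class. AC114539.1 has 58.7% of its exon bases in the body of Nfkb2. Gm16675, opposite Irf2, an interferon regulatory factor that can repress interferon genes, had 5.94, 6.89 and 2.77 TPM. Irf2 had 122, 136 and 96.6 TPM, and both genes were highest in replicate 2 and lowest in replicate 3, the noncoding gene lower by a log2 difference of -4.27 ± 0.32. Gm16675 shares no base with another gene's body.

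E230016M11Rik, opposite the growth arrest and DNA damage gene Gadd45a, had 2.78, 3.99 and 3.69 TPM. Gadd45a had 37.2, 18.8 and 62.1 TPM, so replicate 2 was lowest for the coding gene and highest for the noncoding one. 5730420D15Rik had 0 counts in every library, against 0.05, 0.17 and 0.26 TPM for its partner Socs2, a suppressor of cytokine signalling. A count of 0 allows up to 3 counts, which would be 0.218, 0.180 and 0.194 TPM in the 3 libraries, for counting error only.

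Developmental regulators were the partners of 8 genes, and 0 of the 8 were detected. The share was 13.8% over all pairs and 6.35% where the partner averaged under 1 TPM. With 8 genes, 0 cannot be told from either share. Haglr, beside the homeobox gene Hoxd1, had 0 counts in every library, and so did Hoxd1 by its listed TPM of 0. Fendrr, needed for heart and body wall development in mice, had 1, 0 and 1 counts, and its partner Foxf1 0.13, 0.05 and 0.25 TPM. Crnde had 0, 0 and 1 counts, beside Irx5 at 0, 0.02 and 0 TPM. Gm26839 had 0.11, 0.09 and 0.30 TPM beside Foxn3, a forkhead gene and the 1 detected partner of the 8, at 24.9, 27.9 and 27.4 TPM.

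The partners picked as housekeeping genes by the start of their symbol numbered 8, all of them detected. Beside them 1 noncoding gene of 8 was detected by alignment (12.5%), against 13.8% over all pairs. By the read-based values 6 of the 8 were detected, against 69 of 203 over all pairs. However, these 8 partners had a median of 17.5 TPM by alignment, against 5.07 TPM over all pairs. The part of partner level in the read-based difference was not tested, and 8 pairs are few. The gene detected by alignment was Gm45418 beside Ddx60, whose known role is antiviral. Gm20337 had 0.16, 0.84 and 0.76 TPM, against 565, 549 and 759 TPM for the splicing factor gene Srsf5. Gm16196 had 0.49, 0.31 and 0.08 TPM, against 100.01, 112 and 119.6 TPM for Srsf3, which encodes another splicing factor. In both pairs the coding gene was higher in every library by far more than its spread. Of the genes with a name of their own, Dio3os had 0 counts beside Dio3, a thyroid hormone deiodinase gene listed at 0, and Cep83os had 0.24, 0.62 and 0.31 TPM beside the centrosomal gene Cep83 at 11.1, 10.6 and 11.4 TPM.

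The 11 genes without a coding partner within 2000 bases had few aligned counts. By alignment 0 of the 11 were detected, against 13.1% of the 214 genes and 20.2% of all genes. Of the 11, 7 had 0 counts throughout, against 33.2% of the 214 genes and 56.8% of all genes. With 11 genes, 0 detected cannot be told from either share. The highest was 5330438D12Rik at 1.57, 3.67 and 0.24 TPM. Its replicate 3 fell under the detection level, while replicate 2, at 36.0 expected counts, stood above the others. Of the 11 genes 2 were detected in the read-based tables, where 33.2% of the 214 genes and 32.6% of all genes were. They were 5330438D12Rik, at 8.62, 20.8 and 13.4 TPM, and Gm44577, at 2.81, 5.02 and 4.73 TPM.

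Between libraries the detected genes varied about as much as other detected genes. Their median coefficient of variation was 26.8%, against 23.8% over all detected genes. More than 2-fold lay between the highest and lowest library in 10 of the 28. That count was not made over all detected genes, so it has no comparison. Of the 28 genes 10 were highest in replicate 1, 10 in replicate 2 and 8 in replicate 3, so no library was high throughout. The Pearson correlation of log2(TPM + 1) across the 214 genes was 0.94, 0.92 and 0.91 between replicates 1 and 2, 1 and 3, and 2 and 3, against 0.97, 0.97 and 0.98 across all genes. It is across genes, which are not replicates.

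The steadiest detected genes by alignment after AC114539.1 were Gm16576 and Gm48226. Gm16576, beside Sun2 of the inner nuclear membrane, had 1.62, 1.52 and 1.52 TPM. Gm48226, beside the gephyrin gene Gphn, had 2.70, 2.96 and 2.71 TPM. Both had over 100 expected counts in every library. The most variable after Gm47126 were 2310010J17Rik, 4933412E12Rik, Gm45418 and Gm9828. Gm9828, beside the transcription factor gene Btf3, had 1.71, 2.15 and 4.08 TPM, from 17.5, 24.1 and 43.0 expected counts.

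Overlap with other genes limits many of these values. Some exon bases of 89 of the 214 genes, and of 17 of the 28 detected genes, lie in exons of another gene. Of the 125 genes with no such base 11 were detected (8.80%), and of the 89 with some, 17 (19.1%). Of the 28 detected genes, 10 have no exon base in the body of any other gene. Among them are 4632427E13Rik, Gm2449, Gm16675, 4833418N02Rik, 2310010J17Rik, 5830448L01Rik, AC132253.4, Gm16576 and 0610009L18Rik, from 22 to 1.48 TPM in the mean.

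The read-based tables, made from the same reads without the alignment, gave higher levels for most of these genes. In them 71 of the 214 genes were detected (33.2%), against 32.6% of all genes and 49.9% of protein-coding genes. Detection was shared by both quantifications for 26 genes, 45 were detected in the read-based tables alone and 2 in the alignment-based tables alone. Over all genes 11228 were detected by alignment and 18083 in the read-based tables, 11077 of them in both. Detection in the read-based tables alone thus made up a larger share among the 214 genes than over all genes. Of the 214 genes 30 had the higher value by alignment and 151 in the read-based tables. Over the 55450 genes in both quantifications these numbers were 5951 and 28499, so the direction is not particular to this class. The median log2 difference, alignment minus read-based, was -0.15. It was -0.16 over protein-coding genes and -0.00925 over all genes. Spearman's rho between the 2 quantifications was 0.67 across the 214 genes, against 0.75 across all genes, as a description of genes that share reads and libraries.

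The gap was widest for genes with few aligned counts. AC132253.4, beside Incenp of the chromosomal passenger complex, had 2.18, 1.67 and 1.41 TPM by alignment, against 30.1, 29.4 and 30.8 TPM in the read-based tables. AC133451.1, beside the splicing gene Smndc1, had 0.97, 1.62 and 1.03 TPM, against 20.1, 17.6 and 21.1 TPM. AC125110.1, beside the RNA-binding protein gene Rbm27, had 0.30, 0 and 0 TPM, against 3.36, 19.7 and 22.3 TPM.

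Gm49494, beside the actin-binding protein gene Lima1, had 0.40, 0.54 and 0.36 TPM by alignment, against 6.04, 15.5 and 16.3 TPM, and 4930563E18Rik, beside Abhd3, had 0 counts, against 5.43, 10.3 and 11.0 TPM. The read-based values of these 5 genes were above their alignment-based values in every library, and none of the 5 shares an exon base with another annotated gene. In all, 10 genes with 0 aligned counts in every library were detected in the read-based tables. The same count was not made over all genes, so it has no comparison.

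In the other direction the differences were small. Gm47126 stood 1.65 higher by alignment on the log2 scale, with read-based values of 0, 0 and 14.5 TPM, so replicate 3 was the high library in both. The next 4 were Gm9828 at 0.42, 4632427E13Rik at 0.30, Gm48226 at 0.28 and A930037H05Rik at 0.23. Read-based values were 18.7, 18.1 and 16.2 TPM for 4632427E13Rik, and 206, 112 and 101 TPM for A930037H05Rik, again highest in replicate 1. Gm2449 had 58.8, 48.8 and 64.9 TPM in the read-based tables, which placed it next below A930037H05Rik there.

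**Figure D5:**
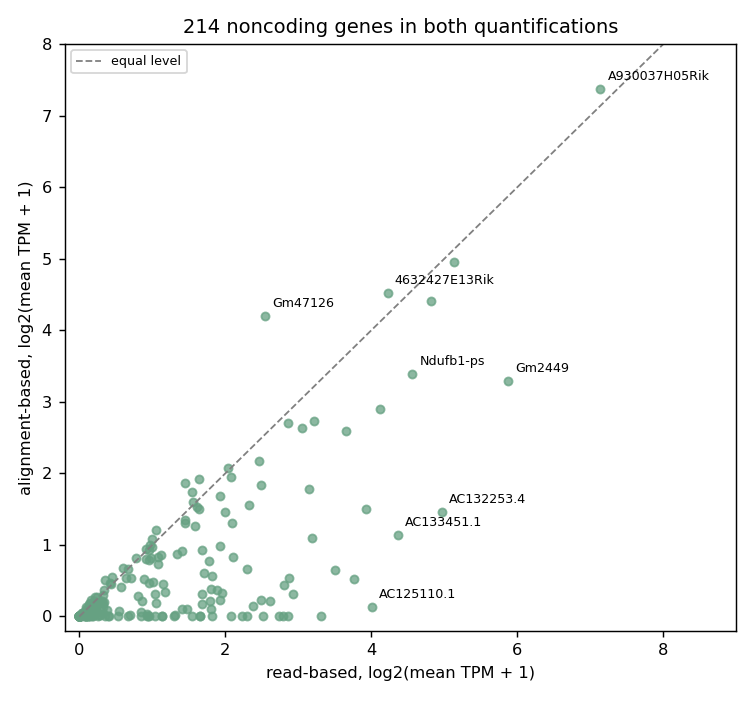
Level of each of the 214 noncoding genes in the alignment-based tables (y axis) against the read-based tables (x axis), both as log2(mean TPM + 1) over 3 libraries, with a dashed line of equal level. Of the genes 151 are higher in the read-based tables, some of them at 0 in the alignment-based tables, and Gm47126 lies farthest on the other side.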

How the data were processed

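The mouse build was mm10 and the annotation GENCODE M21, per the file headers; the sources used here name no program. The expected counts in the deposited alignment-based tables and the estimated counts in the deposited read-based tables are reads or fragments shared out among transcripts and need not be whole. The TPM values deposited by the authors are length-corrected and relative to a fixed total per library, and the posterior mean TPM was used as an alternative. Both quantifications were joined by gene identifier, read-based TPM were summed over each gene's transcripts, and symbols, classes and coordinates came from the GENCODE M21 annotation. Depth is given with the data, and TPM floors for a count of 0 assume 3 counts.

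No group comparison was possible, so no model was fitted. Detection meant at least 1 TPM in all 3 libraries, and levels were log2(TPM + 1), a pseudocount of 1 that understates differences of low genes. Scripts used Python 3.11.15, pandas 2.3.3, numpy 2.4.6 and scipy 1.17.1 and were tested on simulated data. The genes named are the 20 most abundant, the 5 detected ones highest and the 5 lowest relative to their partner, detected genes beside a listed inflammatory or macrophage gene, the 5 largest gaps between quantifications in each direction, the 5 most and 5 least variable, their partners, and genes with a proper name at 0. The genes named singly outside that rule, such as Gm20337, Gm16196, Gm26839, Cep83os and 5330438D12Rik, were chosen after their values were seen. The 214 genes and the lists of partners were chosen with earlier results of these data known. Of the genes that this rule names, 1 is not reported here and is left out of the plot of detected genes.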

Additional observations from a re-analysis of the deposited data

How the results depend on the processing

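Of the 214 genes, the 28 detected became 15 at a threshold of 2 TPM, 71 in the read-based tables and 11 when only genes with no exon base shared with another gene were counted. The median level, 0.13 on the log2(mean TPM + 1) scale, was -2.36 with a pseudocount of 0.1, 1.81 over genes averaging at least 1 TPM, 0.0864 from counts scaled to library size, 0.74 in the read-based tables and 0.45 with the posterior mean. The median difference from the partner, -2.03, was -3.66 with a pseudocount of 0.1, -2.70 where both genes reached 1 TPM, -2.72 from counts scaled to library size and -2.27 in pairs whose 5′ ends do not overlap, so its sign was kept in each of these. The 7 pairs with the noncoding gene higher became 27 in the read-based tables and 19 with the posterior mean. The difference between quantifications, -0.15, was -0.50 with a pseudocount of 0.1 and -1.13 for genes at 1 TPM or more in either. The median coefficient of variation, 26.8%, was 23.1% in the read-based tables. Settings on shared exon bases, the bidirectional transcripts alone and 5′ ends that do not overlap were chosen after seeing the data. The cause of these shifts was not tested.

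With 1 library left out in turn, 30 to 32 genes were detected, the median level lay between 0.10 and 0.14, the difference from the partner between -2.13 and -1.98, the pairs with the noncoding gene higher between 7 and 9, the difference between quantifications between -0.16 and -0.15, and the coefficient of variation between 15.5% and 22.4%. No paired analysis was possible because there is 1 group. Promoter windows from 1000 bases before to 100 after a start were not run. Genes with a few counts, such as 2310010J17Rik, have levels that depth does not fix.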

Other observations

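Genes of other noncoding classes can also begin beside a coding gene on the opposite strand, and they were set beside the bidirectional-promoter class after the data had been seen. With the same limit of 2000 bases, 203 of the 214 bidirectional-promoter genes had a divergent coding partner and 28 of those 203 were detected (13.8%). Of 395 such lincRNAs 30 were detected (7.59%), of 811 antisense genes 95 (11.7%), of 221 TEC genes 31 (14.0%) and of 249 processed transcripts 42 (16.9%). The partners of the bidirectional-promoter genes had a median of 5.07 TPM, against 1.27 for those of the lincRNAs, 1.17 for those of the antisense genes, 3.82 for those of the TEC genes and 2.96 for those of the processed transcripts. The median log2 difference, noncoding gene minus partner, was -2.03 in the bidirectional-promoter class, against -0.73, -0.61, -1.72 and -1.02 in those 4 classes.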
